A study of Mus musculus with 3 samples.

Results

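Hox genes encode homeodomain transcription factors that set position along the body axis. In the mouse they lie in 4 clusters, Hoxa, Hoxb, Hoxc and Hoxd, and genes that share a paralog number occupy matching places in different clusters. Members were all names made of Hox, a cluster letter and a paralog number, which gave 39 genes. Of these, 29 stood alone as the gene name of their locus in all 3 samples, among 25350 genes measured in this way. Another 8 shared a locus with a neighbouring gene in every sample, and Hoxa13 and Hoxb9 did so in 1 sample each. These last 10 are described apart.

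Low-numbered genes of a cluster are switched on early and towards the head, and high-numbered genes late and towards the tail. In undifferentiated embryonic stem (ES) cells the clusters are textbook targets of Polycomb repression, with their CpG islands covered by Polycomb repressive complexes. Pcgf1 is a subunit of a variant form of Polycomb repressive complex 1, which Kdm2b brings to unmethylated CpG islands. The question asked of the Hox genes was whether their RNA differed in ES cells without Pcgf1 and whether added Pcgf1 changed it again.

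RNA-seq was done on 1 sample each of wild-type (WT) ES cells, Pcgf1-/- ES cells made with Cas9, and Pcgf1-/-+Pcgf1 cells, which are Pcgf1-/- cells carrying FLAG-tagged Pcgf1 from a lentivirus. All were labelled C57BL/6 and grew on mouse embryonic fibroblasts stopped with mitomycin-C, in fetal calf serum with leukemia inhibitory factor. The knockout came from single colonies picked after puromycin selection, so clone and genotype cannot be told apart. With 1 sample per genotype no difference had a replicate check, and no test was run. Levels are FPKM, fragments per kilobase of transcript scaled to the mapped fragments of the library, and the depth of the libraries was not given in the sources used here.

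The WT sample had 13.95 FPKM of Pcgf1 itself, the knockout 5.88 and the knockout with added Pcgf1 7.86. Its RNA was thus still measured in the knockout, at a log2 ratio to WT of -1.23 on the scale of FPKM plus 0.1. The paper reports that the knockout cells make a shortened, frame-shifted Pcgf1 transcript and that no Pcgf1 protein was detected by Western blot. Of the ES cell markers, 4 were measured. In the same order, Pou5f1 had 669.5, 518.3 and 625.9 FPKM, Nanog 68.2, 46.3 and 123.0, Zfp42 35.5, 51.7 and 35.7, and Esrrb 85.3, 94.8 and 77.2. Nanog was past 2-fold higher in Pcgf1-/-+Pcgf1 than in Pcgf1-/-, and the other markers were within 2-fold in each comparison. Of 23 feeder fibroblast markers fixed as a list, 19 were measured. Set against WT, the Pcgf1-/- sample had 5 of the 19 past 2-fold down and none up. The shares of all genes were 4.98% and 2.16%. With added Pcgf1, 6 markers were past 2-fold up on Pcgf1-/- and 1 was down, beside 6.35% and 2.22% of all genes. Set against WT, that sample had 2 up and 2 down, beside 3.99% and 2.36%. The 19 markers summed to 178.3 FPKM in WT, 124.5 FPKM in Pcgf1-/- and 132.6 FPKM in Pcgf1-/-+Pcgf1. Without Fn1 and Vim, which ES cells also express, the sums were 28.3, 17.0 and 28.4 FPKM. Between 2 and 4 of the 19 markers were listed at 0 in a sample. Embryonic fibroblasts express Hox genes too, and the part of feeder RNA in the Hox values was not tested. In such bulk RNA, fewer cells of a type and less RNA per cell cannot be told apart.

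The DNA around the starts of the Hox genes is shown first, since Pcgf1 complexes are known from CpG islands. RefSeq promoter windows of 300 bases, from 250 before to 50 after a gene start, were at hand for 22 of the 39 Hox genes, with 24 windows in all. They are on the GRCm38.p6 assembly, which is mm10. The 4 windows printed are those of Hoxd13 and Hoxd1, which gave the highest Hox levels, of Hoxd8, which was above 0 in the Pcgf1-/- sample only, and of Hoxa5, which was listed at 0 in every sample. Capitals mark CG dinucleotides, which read the same on both strands. The windows lie at chr2:74667975-74668274 on the plus strand for Hoxd13, at chr2:74762730-74763029 on the plus strand for Hoxd1, at chr2:74704365-74704664 on the plus strand for Hoxd8 and at chr6:52204538-52204837 on the minus strand for Hoxa5. For Hoxd1, Hoxd8 and Hoxa5 the first-exon row begins at the RefSeq start within the window, and for Hoxd13 it begins 85 bases downstream of the RefSeq start, beyond the window.
Hoxd13: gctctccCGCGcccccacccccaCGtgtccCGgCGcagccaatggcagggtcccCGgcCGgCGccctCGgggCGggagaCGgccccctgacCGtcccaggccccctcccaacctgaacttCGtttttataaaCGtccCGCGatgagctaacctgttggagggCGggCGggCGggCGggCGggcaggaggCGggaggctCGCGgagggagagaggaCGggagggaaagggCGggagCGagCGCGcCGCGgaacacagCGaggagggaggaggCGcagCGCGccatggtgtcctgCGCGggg
Hoxd1: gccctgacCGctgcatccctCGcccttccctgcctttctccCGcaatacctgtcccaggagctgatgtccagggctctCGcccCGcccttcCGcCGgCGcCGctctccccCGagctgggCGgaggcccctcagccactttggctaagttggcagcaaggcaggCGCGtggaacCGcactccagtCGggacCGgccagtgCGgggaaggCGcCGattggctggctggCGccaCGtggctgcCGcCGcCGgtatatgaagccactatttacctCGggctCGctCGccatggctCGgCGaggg
Hoxd8: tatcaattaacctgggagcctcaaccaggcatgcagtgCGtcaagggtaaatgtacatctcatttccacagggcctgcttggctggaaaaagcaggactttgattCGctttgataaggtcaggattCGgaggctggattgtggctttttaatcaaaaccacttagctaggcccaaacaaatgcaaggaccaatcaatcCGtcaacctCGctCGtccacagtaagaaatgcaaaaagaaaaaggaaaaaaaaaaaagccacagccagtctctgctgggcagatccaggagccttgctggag
Hoxa5: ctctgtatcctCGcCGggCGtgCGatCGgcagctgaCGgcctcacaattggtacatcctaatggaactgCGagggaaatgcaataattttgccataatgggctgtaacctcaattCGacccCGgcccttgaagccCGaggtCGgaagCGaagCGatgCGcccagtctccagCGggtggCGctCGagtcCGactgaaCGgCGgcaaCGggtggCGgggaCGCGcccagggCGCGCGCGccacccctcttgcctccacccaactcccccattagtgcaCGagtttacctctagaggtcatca

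The Hoxd13 window held 37 CG, more than 94.4% of the 32851 mouse windows. Hoxd1 and Hoxa5 held 29 each, although Hoxd1 RNA was measured in all samples and Hoxa5 was listed at 0 in all. Hoxd8 held 6, below the median of all windows. Over the 24 Hox windows the count ran from 4 to 45, the highest being Hoxa13, with a median of 14.5 against 7 over all windows. A count of 15 or more was reached by 12 Hox windows (50%) and by 34.6% of all windows, and at least 1 CG was held by 94.6% of all windows. The count is a description of these letters and says nothing on binding of any factor.

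**Figure D1:**
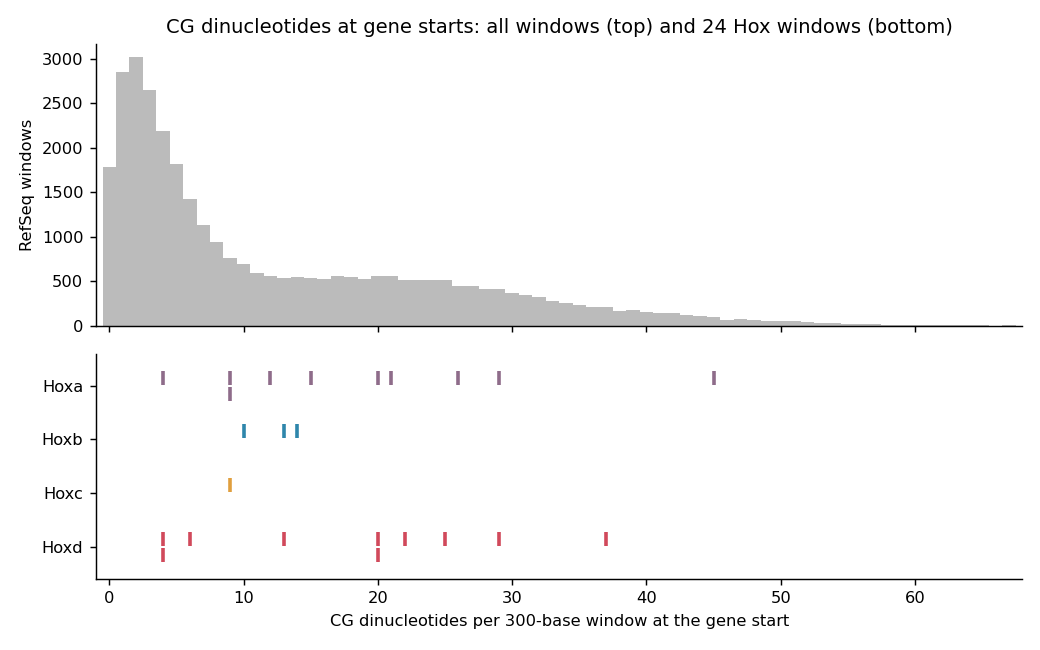
Number of CG dinucleotides in 300-base RefSeq windows at gene starts, on the x axis. The upper panel is a histogram of all 32851 windows, and the lower panel has a tick for each of the 24 Hox windows by cluster. Hox windows run from 4 to 45 CG.

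Hox RNA was scarce in all 3 samples. No Hox gene reached 1 FPKM in any of them, whereas 36.3% of all genes did in WT, 35.3% of them in Pcgf1-/- and 36.9% of them in Pcgf1-/-+Pcgf1. Of the 29 Hox genes, WT had 9 above 0, Pcgf1-/- had 13 and Pcgf1-/-+Pcgf1 had 10. The shares of 31.0%, 44.8% and 34.5% compare with 50.9%, 49.2% and 52.3% over all genes. The Hox genes above 0 had a median of 0.0887 FPKM in WT, of 0.0663 FPKM in Pcgf1-/- and of 0.145 FPKM in Pcgf1-/-+Pcgf1, against 5.04, 5.13 and 4.33 for all genes above 0. The highest value of any Hox gene was 0.590 FPKM, and 58.9% of all genes never exceeded it. Whether a listed 0 always means that no RNA was found is not known, since 37 of the 5082 genes with 10 FPKM or more in a sample (0.728%) were listed at 0 in another, and all counts of genes above or at 0 rest on the values as listed.

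A rough guide to the precision at such levels was taken from low values in the files. Among genes with a single transcript of more than 2000 bases, values between set limits of 0.03 and 0.07 FPKM times kilobase were taken. They came from 71 of 711 genes in WT, 71 of 674 in Pcgf1-/- and 88 of 756 in Pcgf1-/-+Pcgf1. Their medians were 0.0517, 0.0476 and 0.0498 in the same order, and the set limits forced each median to lie between them. Taking the median as a step, Hoxd13 had 28.3, 22.9 and 10.1 steps over its longest transcript. That was the most of the 29 genes in WT and Pcgf1-/-. Of the 32 Hox values above 0, 22 were worth fewer than 10 steps, and a step may stand for 1 fragment. The step was estimated from the values and no count was at hand to check it, so it is given only as a guide.

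Genes with paralog number 13 act last and nearest the tail, in the digits, the genital tract and the hind end of the trunk. Hoxd13 (ENSMUSG00000001819, chr2:74668310-74671599, plus strand), which patterns the digits, had 0.590 FPKM in WT, 0.440 FPKM in Pcgf1-/- and 0.202 FPKM in Pcgf1-/-+Pcgf1. The lowest value was thus in the sample with added Pcgf1. Folds here and below were taken after 0.1 was added to each FPKM, so they are smaller than ratios of the printed levels. On that scale Pcgf1-/-+Pcgf1 was 2.28-fold below WT and Pcgf1-/- was 1.28-fold below WT. Hoxc13 (ENSMUSG00000001655, chr15:102921103-102928814, plus strand), needed for hair and nails, had 0.340 FPKM in WT and 0.332 in Pcgf1-/-, which are nearly equal, and 0.135 in Pcgf1-/-+Pcgf1. Hoxb13 (ENSMUSG00000049604, chr11:96194316-96197447, plus strand), a regulator of tail length and of the prostate, had 0.0794, 0.310 and 0.154 FPKM in the same order. On the scale of FPKM plus 0.1 it was 2.28-fold higher in Pcgf1-/- than in WT. It was 1.61-fold lower in Pcgf1-/-+Pcgf1 than in Pcgf1-/-. Hoxd13 and Hoxc13 therefore did not share the order of samples seen for Hoxb13. Summed over the 3 genes, the levels were 1.01, 1.08 and 0.491 FPKM, or 57.0%, 55.4% and 28.0% of all FPKM of the 29 Hox genes.

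At the opposite end of the clusters, paralog 1 genes are the first to be induced and act in the hindbrain and neural crest. Hoxd1 (ENSMUSG00000042448, chr2:74762980-74765142, plus strand) had 0.379 FPKM in WT, 0.138 FPKM in Pcgf1-/- and 0.535 FPKM in Pcgf1-/-+Pcgf1. It was lowest in the knockout. On the scale of FPKM plus 0.1, Pcgf1-/- was 2.01-fold below WT and Pcgf1-/-+Pcgf1 was 2.67-fold above Pcgf1-/-. These 2 ratios share the Pcgf1-/- sample, so they are not independent of each other. Hoxb1, which sets hindbrain segment identity, was listed at 0 in WT and Pcgf1-/- and had 0.0508 FPKM in Pcgf1-/-+Pcgf1. Hoxd1 and the 3 paralog 13 genes together made up 78.4% of the summed Hox FPKM in WT, 62.5% of it in Pcgf1-/- and 58.5% of it in Pcgf1-/-+Pcgf1.

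Among the genes between these ends, Hoxd8 (ENSMUSG00000027102, chr2:74704615-74707933, plus strand) stood out by size. It was listed at 0 in WT and in Pcgf1-/-+Pcgf1 and had 0.229 FPKM in Pcgf1-/-. Since the other samples were at 0, no fold is given. The other genes above 0 in Pcgf1-/- alone had far lower values, each worth fewer than 3 steps. They were 0.0491 FPKM for Hoxb6, 0.0487 for Hoxb8, 0.0399 for Hoxb2 and 0.0248 for Hoxa11. The Hoxb6 value came from last-exon rows only and the Hoxb8 value from first-exon rows only. Of the 29 Hox genes, 5 were above 0 in Pcgf1-/- and at 0 in WT, where the share over all genes was 2.04%. The opposite pattern, above 0 in WT and at 0 in Pcgf1-/-, held for Hoxc4 alone and for 3.77% of all genes. In the comparison of Pcgf1-/-+Pcgf1 with Pcgf1-/-, 6 Hox genes were above 0 without added Pcgf1 and at 0 with it, against 1.76% of all genes, and 3 had the opposite pattern, against 4.86%. Between Pcgf1-/-+Pcgf1 and WT, 2 were above 0 only in the former, against 3.62% of all genes, and 1 only in the latter, against 2.24%. The first and second pairs of counts share the Pcgf1-/- sample. The shares beside them cover genes at all levels, and no share among genes as low as the Hox genes was worked out. None of the 29 was above 0 in WT alone.

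The remaining genes in the middle of the clusters went in several directions. Hoxb4, known for the expansion of blood stem cells, had 0.140 FPKM in WT, 0.199 FPKM in Pcgf1-/- and 0.0393 FPKM in Pcgf1-/-+Pcgf1. With 0.1 added to each FPKM, as for all folds of this paragraph, the last was 2.15-fold below Pcgf1-/-. Hoxb7 had 0.0887, 0.0438 and 0.227 FPKM in the same order, with the highest value where Pcgf1 was added, 2.27-fold above Pcgf1-/-. Hoxc4 had 0.0537 FPKM in WT, was listed at 0 in Pcgf1-/- and had 0.212 in Pcgf1-/-+Pcgf1, 2.03-fold above WT. Its values came from last-exon rows only. Hoxd9 was the same in WT (0.0323 FPKM) and Pcgf1-/- (0.0328 FPKM) and stood at 0.121 in Pcgf1-/-+Pcgf1. Hoxc6 had 0.0669 FPKM in WT and 0.0663 in Pcgf1-/-, also from last-exon rows only, and was listed at 0 in Pcgf1-/-+Pcgf1. Hoxa9, a regulator of blood progenitors, was above 0 only in Pcgf1-/-+Pcgf1, at 0.0781 FPKM. Listed at 0 in all samples were 13 genes, among them Hoxa5, Hoxa7, Hoxa10, Hoxb3, Hoxb5, Hoxc8, Hoxc9, Hoxc11, Hoxc12 and Hoxd12. That share of 44.8% is near the 44.5% of all genes listed at 0 throughout.

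For ratios 0.1 was added to each FPKM, and genes beyond 2-fold were counted with no test. Between Pcgf1-/- and WT, 3 of the 29 Hox genes (10.3%) were past 2-fold, Hoxb13 and Hoxd8 being higher and Hoxd1 lower, where 7.14% of all genes were past 2-fold, 2.16% higher and 4.98% lower. Genes at low levels pass this limit more often. Among all genes whose larger FPKM lay above 0.1 and no higher than 0.590, 39.5% were past 2-fold (11.6% higher, 27.9% lower). With 0.1 added, a gene past 2-fold has to lie above 0.1 in its higher sample, so the same Hox genes are past 2-fold in that range. The range held 6 Hox genes, so the count to set beside 39.5% is 3 of 6, not 10.3%. These numbers are small. Between Pcgf1-/-+Pcgf1 and Pcgf1-/-, 5 of the 29 (17.2%) were past 2-fold, with Hoxb7, Hoxc4 and Hoxd1 higher and Hoxb4 and Hoxd8 lower, against 8.57% of all genes (6.35% higher, 2.22% lower). In the same range of levels the share of all genes was 44.4% (35.6% higher, 8.73% lower), beside 5 of 9 Hox genes. Between Pcgf1-/-+Pcgf1 and WT, Hoxc4 was higher and Hoxd13 lower, 2 of 29 (6.90%) against 6.34% of all genes (3.99% higher, 2.36% lower). In the low range 37.3% of all genes were past 2-fold (24.6% higher, 12.7% lower), beside 2 of 8 Hox genes. The median log2 ratio over the 29 Hox genes was 0 in all 3 comparisons, as it was over all genes, and 13 or more of the 29 were at 0 in both samples of each.

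**Figure D2:**
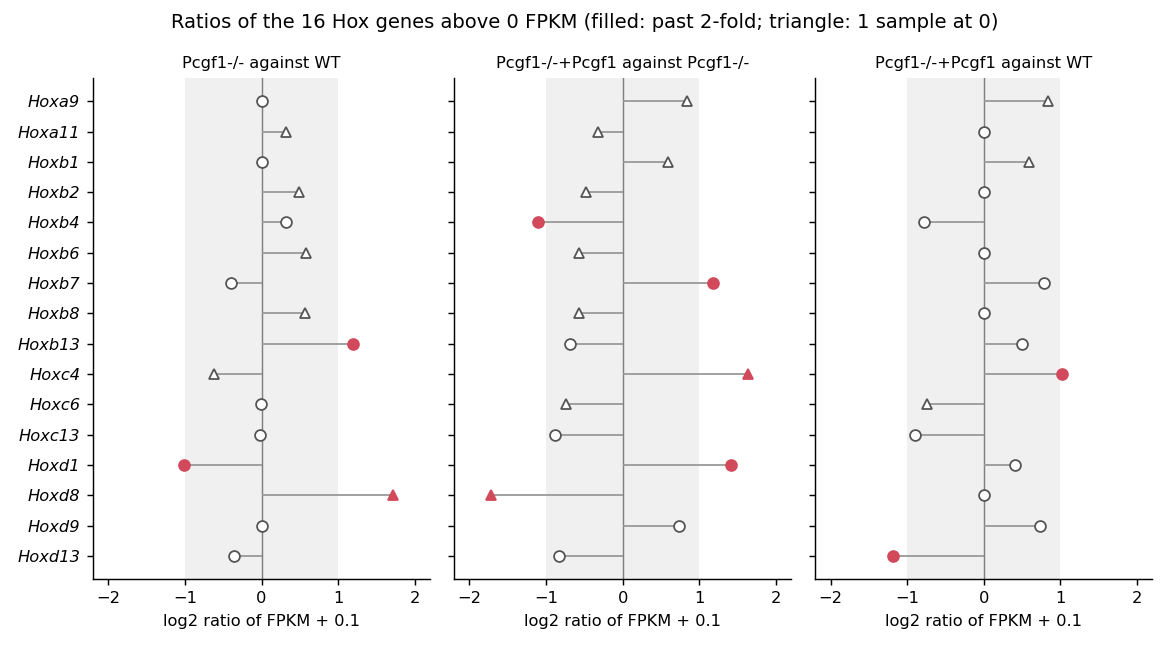
Log2 ratio of FPKM plus 0.1 on the x axis for the 16 Hox genes above 0 in any sample, in each of the 3 comparisons (1 sample per genotype, no error). Filled symbols lie beyond the 2-fold limits (3, 5 and 2 genes), triangles mark genes listed at 0 in 1 of the samples compared, and their length depends on the added 0.1; circles on the zero line include genes at 0 in both samples.

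By cluster, the summed level of the 8 single-locus Hoxa genes was 0 in WT, 0.0248 FPKM in Pcgf1-/- and 0.0781 FPKM in Pcgf1-/-+Pcgf1, the lowest of the 4 clusters in every sample. The 9 Hoxb genes summed to 0.308, 0.690 and 0.471 FPKM in the same order. Much of the higher value in Pcgf1-/- came from Hoxb13. The 7 Hoxc genes summed to 0.460, 0.399 and 0.347 FPKM, and the 5 Hoxd genes to 1.0005, 0.840 and 0.858 FPKM. Over single-locus genes Hoxd was the highest cluster in each sample with the fewest genes counted, and Hoxd13 and Hoxd1 made up most of its sum. Over all 29 genes the sums were 1.77, 1.95 and 1.75 FPKM. Genes in shared loci are not in these sums.

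**Figure D3:**
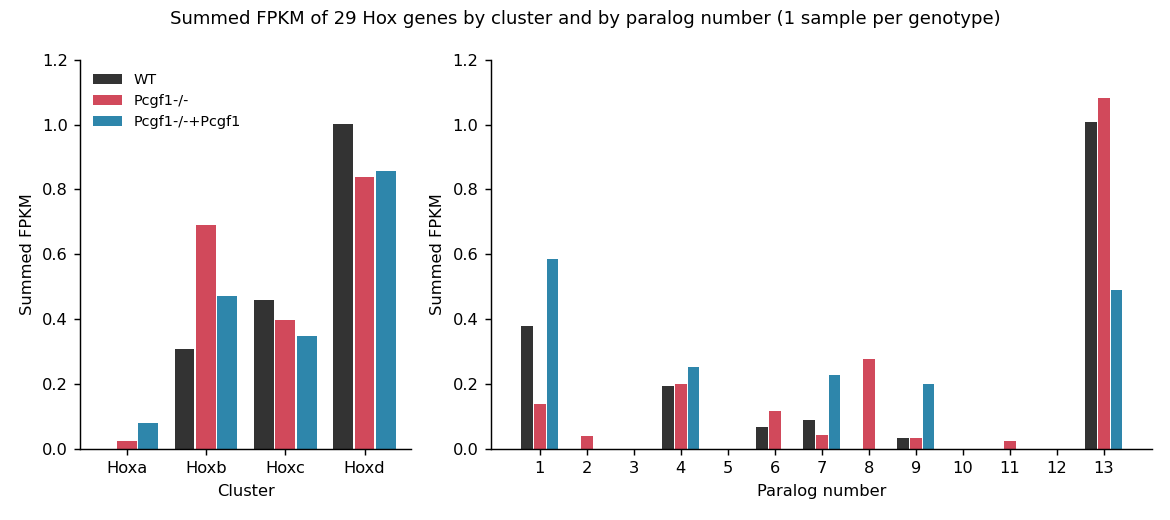
Summed FPKM of the 29 single-locus Hox genes by cluster (left) and by paralog number (right), with a bar for each of the 3 samples and no error, since each genotype has 1 sample. The Hoxb bar is highest in Pcgf1-/- (0.690 FPKM), and the paralog 13 bar is lowest in Pcgf1-/-+Pcgf1 (0.491 FPKM).

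For the 10 genes in shared loci, values were read from the exon rows, which do not always part the neighbours. At Hoxa13, another paralog 13 gene, which acts in limb and genital tract, nothing was listed above 0 in WT and Pcgf1-/-+Pcgf1. In Pcgf1-/- its locus was joined with 9530018H14Rik and had 0.423 FPKM, all at exons of Hoxa13 such as the last exon at chr6:52257694-52259148 on the minus strand. Hoxb9 had 0.0224 FPKM in WT and 0.0945 in Pcgf1-/-, and in Pcgf1-/-+Pcgf1, where it was joined with Gm53 and Mir196a-1, its own exons had 0.119. The locus of Hoxc10 and Hoxc5 had 0.0248, 0.121 and 0.0498 FPKM in WT, Pcgf1-/- and Pcgf1-/-+Pcgf1, with the last exon at Hoxc10 and a first exon that both genes share. The locus of Hoxd11 and Hoxd10 was above 0 in Pcgf1-/-+Pcgf1 alone (0.144 FPKM), with its last exon at Hoxd10 and a first exon at chr2:74683446-74683509 that matches no exon of either gene. At the locus of Hoxd3 and Hoxd4, values of 0.101 FPKM in WT and 0.0631 in Pcgf1-/-+Pcgf1 came mostly from Hoxd4 exons (0.0853 and 0.0408), and Pcgf1-/- was listed at 0. The locus of Hoxa2 and Hoxa3 had 0.0236 FPKM in WT, at a first exon of Hoxa3, and 0 elsewhere.

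Non-coding RNAs of the clusters include antisense and spacer transcripts, some of which are known to act on Hox genes. Of 15 listed, 7 had a locus of their own, and Hotair, Hoxb5os, Hoxaas2, Hoxd3os1 and Hoxb3os were at 0 in all samples. Halr1, which lies outside the genes of the Hoxa cluster, was listed at 0 in WT and Pcgf1-/- and had 0.592 FPKM in Pcgf1-/-+Pcgf1. Hoxaas3 was above 0 in Pcgf1-/- alone, at 0.166 FPKM. Among 10 neighbours of the clusters, 8 were measured. Evx1, a homeobox gene beside Hoxa13, had 0.0214 FPKM in WT, 0.231 FPKM in Pcgf1-/- and 0.142 FPKM in Pcgf1-/-+Pcgf1, and was the only neighbour past 2-fold between Pcgf1-/- and WT, where 7.14% of all genes were. Skap1, beyond the Hoxb cluster, had 0.0827, 0.0561 and 1.44 FPKM and Mtx2, beyond the Hoxd cluster, had 11.4, 10.1 and 30.7 FPKM. Both were past 2-fold higher in Pcgf1-/-+Pcgf1 than in either other sample. Of all genes, 6.35% were past 2-fold higher there against Pcgf1-/- and 3.99% against WT. The library kit and the counting are not stated to keep strand, so reads of Hoxaas3 and of the overlapping genes cannot be told apart.

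Hox proteins bind DNA with partners of the TALE class, the Pbx, Meis and Pknox proteins. Of 9 such genes 7 were measured, and between Pcgf1-/- and WT none was higher and 2 were lower past 2-fold, beside 2.16% and 4.98% of all genes. Pknox2 had 0.555 FPKM in WT, 0.152 FPKM in Pcgf1-/- and 1.51 FPKM in Pcgf1-/-+Pcgf1, and was lowest in Pcgf1-/-. Past 2-fold between Pcgf1-/-+Pcgf1 and Pcgf1-/-, 2 genes of the list were higher and 1 was lower. Over all genes the shares were 6.35% and 2.22%. Pknox2 was among the 2 higher, and the lower gene, Pbx3, had 6.51, 6.25 and 2.87 FPKM in the order above.

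Among 10 genes that induce or regulate Hox genes, all measured, 3 were past 2-fold higher in Pcgf1-/- than in WT and none lower, where 2.16% of all genes were higher and 4.98% lower. Cyp26a1, which breaks down retinoic acid and is itself induced by it, had 3.38 FPKM in WT, 16.5 FPKM in Pcgf1-/- and 4.38 FPKM in Pcgf1-/-+Pcgf1, with log2 ratios of 2.25 for Pcgf1-/- against WT and -1.89 for Pcgf1-/-+Pcgf1 against Pcgf1-/-. Cdx1, a homeobox activator of Hox genes, had 0.204, 1.06 and 0.811 FPKM. Gata6, a transcription factor of primitive endoderm, had 0.136, 0.410 and 0.129 FPKM. That is in the low range of levels, where 11.6% of all genes were past 2-fold higher in Pcgf1-/- than in WT. Cyp26a1 and Gata6 were the 2 genes of the list past 2-fold lower in Pcgf1-/-+Pcgf1 than in Pcgf1-/-, while Cdx1 differed there by less than 2-fold. None of the list was past 2-fold higher there, and over all genes 2.22% were lower and 6.35% higher. The retinoic acid receptor genes Rara (21.96, 23.2 and 18.7 FPKM) and Rarg (44.8, 59.0 and 38.1 FPKM) and the Hox-maintaining methyltransferase gene Kmt2a (4.69, 4.28 and 5.45 FPKM) stayed within 2-fold. Cdx2, Cdx4, T and Rarb had less than 0.4 FPKM in all 3 samples. Of these, Cdx4 had 0.348, 0.125 and 0.242 FPKM. Its log2 ratio between Pcgf1-/- and WT, -0.997, was just inside the limit on the lower side. The list's median log2 ratio between Pcgf1-/- and WT was -0.03. Over all genes it was 0, but 11928 of the 25350 genes had a log2 ratio of 0 there. None of the list was at 0 in both samples, so the medians cover unlike sets of genes.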

How the data were processed

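Each deposited file lists the transcript events of a sample, each with its FPKM. Per the submitters' processing notes, the tools were TopHat2 2.0.12, Cufflinks 2.2.1 and HTSeq 0.6.0 with mm10. The program that wrote the lists is not stated, and the study's methods name RPKM and DEGseq. For each gene the FPKM of first-exon (TSS) rows and of last-exon (TTS) rows were added up, and the larger total was taken. The totals were equal in all 3 samples for 24 of the 29 Hox genes. Loci with several gene names were kept apart. Both edges of all 225 first-exon and last-exon rows of Hox genes matched GENCODE exons. Ratios used a pseudocount of 0.1 FPKM and a limit of 2-fold, with no filter and no test, and understate the change of low genes. The pseudocount of 1 or 0.01 FPKM, TSS or TTS rows alone, shared loci, scaling and a filter of 1 FPKM were alternatives. Every Hox gene was named, with fixed lists of cofactors, regulators, non-coding genes, neighbours and markers. Some items are not reported here. Members and lists were chosen with earlier results of these data known. Software was Python 3.11.15, numpy 2.4.6, pandas 2.3.3 and matplotlib 3.10.9.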

Additional observations from a re-analysis of the deposited data

Results flagged for a closer look

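Values above those of WT appeared in rows of the Hox clusters that lie outside the genes with a locus of their own. The last exon of Hoxa13 in Pcgf1-/- had 0.423 FPKM and was listed at 0 in WT. Hoxaas3 had 0.166 FPKM in Pcgf1-/- and 0 in WT. In Pcgf1-/-+Pcgf1, Halr1 had 0.592 FPKM, Gm15050 had 0.201 and a first exon in the locus of Hoxd11 and Hoxd10 had 0.144, each listed at 0 in WT. A first exon of Gm53, in the locus joined with Hoxb9, had 0.953 FPKM in Pcgf1-/-+Pcgf1 and 0.696 in WT. A first exon shared by Hoxc10 and Hoxc5 had 0.121 FPKM in Pcgf1-/- and 0.0498 in Pcgf1-/-+Pcgf1, against 0.0248 in WT. A first exon of Hoxd3 had 0.0223 FPKM in Pcgf1-/-+Pcgf1 and 0.0159 in WT. The whole locus of Hoxd3 and Hoxd4 went the other way, with 0.0631 FPKM in Pcgf1-/-+Pcgf1 and 0.101 in WT. Each rests on 1 sample.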

How the results depend on the processing

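The counts of Hox genes past 2-fold depended on the pseudocount. With 0.01 FPKM they were 8 (6 higher, 2 lower) for Pcgf1-/- against WT, 15 (6 higher, 9 lower) for Pcgf1-/-+Pcgf1 against Pcgf1-/- and 9 (5 higher, 4 lower) for Pcgf1-/-+Pcgf1 against WT, where 12.9%, 14.4% and 11.8% of all genes were past 2-fold. With 1 FPKM they were 0, 0 and 0, where the shares of all genes were 1.79%, 2.31% and 1.30%. With TSS rows alone, Hoxd13 was the 1 gene past 2-fold between Pcgf1-/-+Pcgf1 and WT, and the Hoxc sum in Pcgf1-/-+Pcgf1 was 0.135 FPKM. With shared loci included (39 genes), each gene was given the value of its whole locus, so a locus with several Hox names was counted for each. The counts were then 6, 9 and 5, and no share over all genes was worked out for this setting. The sums were 0.0472 FPKM for Hoxa in WT, 0.447 for Hoxa in Pcgf1-/- and 0.640 for Hoxc in Pcgf1-/-. In Pcgf1-/-+Pcgf1 the Hoxb sum (1.54) was above the Hoxd sum (1.27). Of that Hoxb sum, 0.953 FPKM came from a first exon of Gm53 that matches no Hoxb9 exon, and Hoxb9's own exons had 0.119. Median scaling took Hoxd1 in Pcgf1-/- against WT to a log2 ratio of -0.96, inside 2-fold, and left the other 47 of 48 ratios of the 16 named Hox genes on their side of the limit. No ratio past 2-fold changed sign under any of these settings. The filter of 1 FPKM left no Hox gene and gave no value. No paired analysis was possible because each genotype had 1 sample.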
